A study of Homo sapiens with 24 samples.

Results

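Serpins are a family of proteins with a shared fold, most of which trap and inactivate a protease through an exposed loop that the protease cleaves. Some members have lost the inhibitory function and act as secreted signals or chaperones. SERPINF1 encodes pigment epithelium-derived factor, a secreted serpin without protease inhibition that is known for restraining blood vessel growth and supporting neurons. A miRNA is a short RNA that guides Argonaute proteins to mRNAs that pair with its seed, the bases from position 2 to 8, and pairing usually lowers the level of the mRNA.

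The 9 genes described are SERPINF1, SERPINF2, SERPINH1, SERPINB1, SERPINB6, SERPINB8, SERPINB9, SERPINE2 and SERPINI1, out of 29794 genes counted and out of 34 genes whose symbol starts with SERPIN. They were chosen by name, with SERPINF1 chosen by its rise in these same libraries under 3 miRNAs that share a seed. The values of SERPINF1 in those 3 contrasts are therefore given as a description, with no test. The cells were Flp-In T-REx 293, an established line derived from human embryonic kidney cells, transduced with a lentiviral vector in which the CMV promoter drives GFP only when doxycycline is present. In the miRNA groups an artificial hairpin carrying 1 miRNA lay in an intron of the GFP transcript. The empty vector cells carried the same cassette without a hairpin. Every group, controls included, was selected with Geneticin at 1 mg/mL for 6 days and then kept in 1 µg/mL doxycycline for 7 days, and replicates were separate transductions. Batch 1 contained duplicate libraries of empty vector, miR-1 and miR-122 cells (n = 2), and batch 2 contained triplicate libraries (n = 3) of empty vector cells and of cells with miR-133a, with miR-155, or with miR-302a, miR-372 or miR-373. Controls were always the empty vector libraries of the same batch, so comparisons within a batch share them. The poly(A) libraries do not measure the mature miRNAs.

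The mature strands are shown because the grouping of the results follows them. Sequences are from RefSeq (GRCh38.p14), written 5′ to 3′ with the seed in capitals. The first 3 share all 7 bases of the seed and are called the same-seed miRNAs.
miR-302a-3p: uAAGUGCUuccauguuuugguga
miR-372-3p: aAAGUGCUgcgacauuugagcgu
miR-373-3p: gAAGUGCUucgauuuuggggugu
miR-133a-3p: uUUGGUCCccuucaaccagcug
miR-155-5p: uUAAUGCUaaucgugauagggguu
miR-1-3p: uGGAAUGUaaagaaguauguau
miR-122-5p: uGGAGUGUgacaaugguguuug

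Libraries held between 20153452 and 21595191 counted reads in batch 1 and between 13047400 and 35040778 in batch 2. Replicates of a group always differed by more than sampling noise (chi-square per degree of freedom across genes between 1.79 and 33.6). Replicate 2 of miR-155, miR-302a and miR-372 stood apart from its partners. Its chi-square per degree of freedom against them was 15.2 or more, whereas every other pair of replicates stayed at 12.6 or less. The listed genes often used to describe this line were present in all 24 libraries. VIM was at 908 to 1310 CPM (read counts scaled to library size with TMM factors). KRT8 was at 176 to 297 CPM, KRT18 at 79.6 to 121 CPM and PAX2 at 5.28 to 13.8 CPM. NEFM was the lowest of them, at 1.26 to 4.42 CPM. Five-gene lists of leukocyte and liver markers summed to at most 0.614 and 1.83 CPM in any library. Of the muscle markers, TNNT1 reached 15.7 to 37.5 CPM and the other 4 stayed at or below 1.43 CPM.

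Of the 9 serpin genes, 7 passed the filter on low counts in both batches. SERPINF2 and SERPINB9 did not, so these 2 genes cannot be called expressed in this line. SERPINF2, which encodes alpha-2-antiplasmin, the plasma inhibitor of plasmin, had 19 reads in all of batch 1 and 74 in all of batch 2. SERPINB9, the granzyme B inhibitor of lymphocytes, had 3 and 4 reads. The only other serpin gene that passed was SERPING1, the inhibitor of complement C1, and 26 of the 34 serpin genes failed in both batches. The least abundant tested gene of the 9 was SERPINB8, with 262 and 487 reads.

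Levels between genes were compared per kilobase of counted exon. In the empty vector cells of batch 2, SERPINB6 (19.4 ± 1.28 CPM per kb, SD, n = 3) and SERPINH1 (19.3 ± 0.980 CPM per kb) were highest and did not differ beyond their spread. SERPINE2 followed at 10.9 ± 0.621 and SERPINB1 at 9.69 ± 0.456 CPM per kb. SERPINF1 at 2.64 ± 0.364 and SERPINI1 at 2.31 ± 0.468 CPM per kb lay within each other's spread, and SERPINB8 was at 0.525 ± 0.0708 CPM per kb. The order was nearly the same in the empty vector cells of batch 1, where SERPINH1 (20.8 ± 0.203 CPM per kb, n = 2) stood above SERPINB6 (19.6 ± 0.126). SERPINF1 reached 12.3 ± 3.49 CPM per kb with miR-302a, 13.3 ± 2.17 with miR-372 and 12.2 ± 2.61 with miR-373. That placed it beside SERPINE2 in those cells, at 14.1 ± 1.51, 14.3 ± 0.211 and 13.2 ± 0.517 CPM per kb.

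SERPINF1 (ENSG00000132386.6, GRCh37 chr17:1665323-1680859, plus strand) was high in all 9 libraries with a same-seed miRNA. The empty vector libraries of batch 2 held 5.93, 5.34 and 6.99 CPM in replicates 1, 2 and 3. With miR-302a the values were 30.7, 19.3 and 34.9 CPM, with miR-372 they were 32.7, 25.1 and 34.4 CPM, and with miR-373 they were 27.1, 22.8 and 34.6 CPM. None of these 9 libraries overlapped the controls, and replicate 2 was the lowest in each of the 3 groups. The group means were 28.3 ± 8.05, 30.7 ± 5.0 and 28.2 ± 6.00 CPM against 6.09 ± 0.839 CPM (SD, n = 3). In the same order, the fold changes were 4.62, 5.07 and 4.66, or 2.21, 2.34 and 2.22 on the log2 scale (SE 0.205, 0.203 and 0.203). Without replicate 2, which stood apart in the miR-302a and miR-372 groups, the log2 fold changes were 2.43 and 2.47, and for miR-373 2.35. These were the highest values of any alternative. Over all alternatives the log2 fold change ran from 2.03 to 2.43 with miR-302a, from 2.26 to 2.47 with miR-372 and from 2.03 to 2.35 with miR-373. Among the 12489 tested genes whose mean log2 CPM was 1 or more, SERPINF1 was the most raised with miR-302a and miR-373, ahead of PRSS8, a membrane-anchored serine protease, at 2.03 and 2.06. With miR-372 it ranked 2, behind the transcript AC079949.1 at 2.66. Over all 14054 genes tested, which include genes with very few reads, its ranks were 6, 9 and 5.

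**Figure D1:**
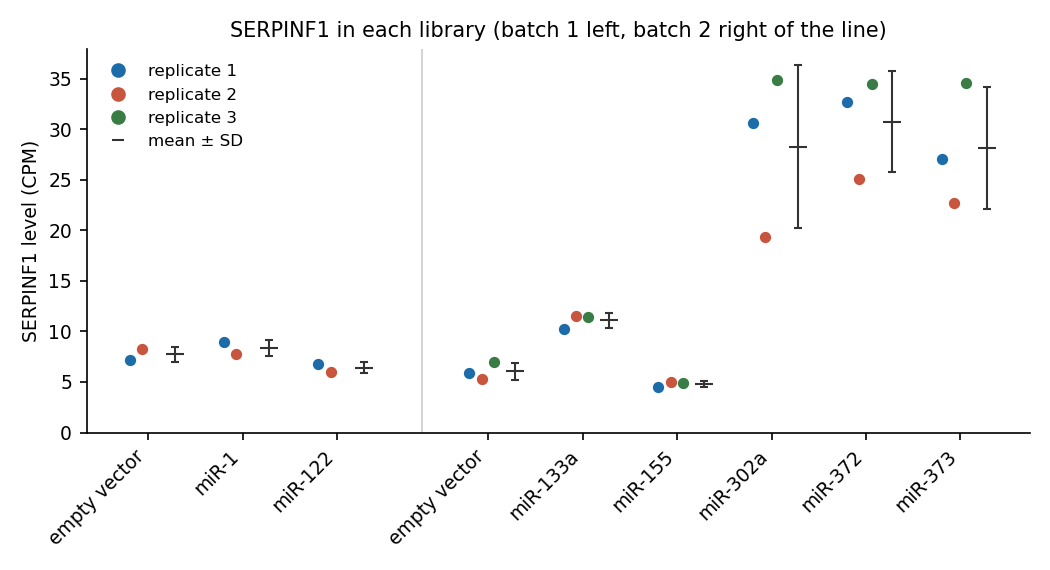
SERPINF1 level in CPM (vertical axis) for each of the 24 libraries, grouped by vector (horizontal axis), with batch 1 to the left and batch 2 to the right of the line. Points are replicates, and the bars beside them give the mean and SD. The 9 libraries with miR-302a, miR-372 or miR-373 lie between 19.3 and 34.9 CPM, above the miR-133a libraries at 10.3 to 11.5 CPM and the 3 control libraries at 5.34 to 6.99 CPM.

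The contrasts that did not choose SERPINF1 were tested with the quasi-likelihood test of edgeR, adjusted over all genes by Benjamini-Hochberg. In batch 2, those against empty vector reuse the control libraries of the contrasts that chose the gene. Low controls would favour both the choice and a rise, so these p-values are not independent of the choice. With miR-133a, SERPINF1 stood at 10.3, 11.5 and 11.5 CPM, above every control library and below every library with a same-seed miRNA. How many of all genes separate in this way was not counted. The SERPINF1 rise of 1.82-fold with miR-133a (log2 0.87, SE 0.217, edgeR adjusted p 0.022, higher in 3 of 3 libraries) passed the threshold, as it did with the DESeq2 Wald test (adjusted p 0.00172). It ranked 15 of those 12489 genes. It was lost without empty vector replicate 1 or 2 (edgeR adjusted p 0.0794 and 0.104) and without miR-133a replicate 2 or 3 (0.0780 and 0.0731), and kept without empty vector replicate 3 (0.0344) or miR-133a replicate 1 (0.0411), while the log2 fold change stayed between 0.78 and 0.98 in every alternative. The difference between miR-133a and the same-seed miRNAs was not tested.

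With miR-155, SERPINF1 stood at 4.5, 5.05 and 4.89 CPM, so that all 3 libraries lay below the controls. The log2 fold change was -0.34 with a 95% interval from -0.84 to 0.16 and did not pass (edgeR adjusted p 0.406). In batch 1, SERPINF1 was at 7.20 and 8.27 CPM in the empty vector libraries, 8.91 and 7.82 CPM with miR-1, and 6.80 and 6.01 CPM with miR-122. The miR-1 libraries overlapped the controls and the miR-122 libraries lay just below them. Neither passed against the empty vector, with log2 fold changes of 0.11 for miR-1 (95% interval -0.15 to 0.37, edgeR adjusted p 0.549) and -0.27 for miR-122 (-0.55 to 0.00047, edgeR adjusted p 0.255). Compared directly, SERPINF1 was higher with miR-1 than with miR-122 (log2 0.39, SE 0.130, edgeR adjusted p 0.028, both libraries above both). That call was lost with the DESeq2 Wald test (adjusted p 0.158), without miR-1 replicate 1 (edgeR adjusted p 0.230) and without miR-122 replicate 1 or 2 (0.0504 and 0.197). In order of level within batch 2, SERPINF1 thus ran from miR-155 and empty vector, which did not differ by the test, through miR-133a to the same-seed miRNAs. In these bulk libraries, more cells making a transcript and more transcript per cell cannot be told apart.

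The same-seed miRNAs were compared with each other because they share predicted targets but differ outside the seed. Their SERPINF1 libraries overlapped throughout. The rise in each of these groups chose SERPINF1, so similar levels were favoured by the choice. The log2 difference was -0.13 for miR-302a against miR-372 (95% interval -0.50 to 0.24), -0.01 for miR-302a against miR-373 (-0.38 to 0.36) and 0.12 for miR-372 against miR-373 (-0.24 to 0.49). Of the 7 tested serpin genes, 0 were called in each of these 3 comparisons by edgeR, 0 had an unadjusted p under 0.05 and 0 were called by DESeq2. Over all 14054 genes, edgeR called 0% in each, with at most 184 genes at an unadjusted p under 0.05, and DESeq2 called 0, 3 and 1.

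SERPINF2 lies directly upstream of SERPINF1, in the same orientation, with 6.8 kb between the annotated genes. In batch 2 it had 3, 3 and 2 reads in the control libraries, 12, 1 and 3 with miR-302a, 9, 2 and 8 with miR-372, and 5, 6 and 10 with miR-373. Its mean level was 0.188 ± 0.0435 CPM in the controls and 0.376 ± 0.413, 0.351 ± 0.216 and 0.343 ± 0.0538 CPM with the same-seed miRNAs. The CPM ranges overlapped the controls for miR-302a and miR-372 and lay above them for miR-373. The gene was too low to test, so that a change of SERPINF2 could not be shown at this depth.

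The other tested genes that lie wholly within 100 kb of SERPINF1 are SMYD4 (1.9 kb downstream), WDR81 (23.4 kb), MIR22HG (44.9 kb) and TLCD2 (51.7 kb). None of the 4 was called by edgeR against the empty vector in batch 2. With the same-seed miRNAs, SMYD4, a lysine methyltransferase-family gene, had log2 fold changes of -0.08, -0.10 and -0.04, with 95% intervals that together span -0.29 to 0.15. WDR81, a gene of endosome trafficking, had 0.08, 0.05 and 0.12. MIR22HG, the host transcript of miR-22, had 0.15, 0.60 and 0.65 (edgeR adjusted p 0.736, 0.094 and 0.101), and TLCD2 had -0.18, 0.07 and -0.17. In batch 1, WDR81 was higher with miR-1 than with empty vector (log2 0.24, SE 0.0623, edgeR adjusted p 0.0084) and than with miR-122 (0.21, SE 0.0622, adjusted p 0.016). TLCD2 differed between miR-1 and miR-122 (0.75, SE 0.230, edgeR adjusted p 0.017). Around all 9 serpin genes, 12 neighbours were tested. Of these, edgeR called 3 with miR-1 (25%, against 24.5% of all genes), 1 with miR-372 (8.33%, against 11.4%) and 0 with each other miRNA.

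**Figure D2:**
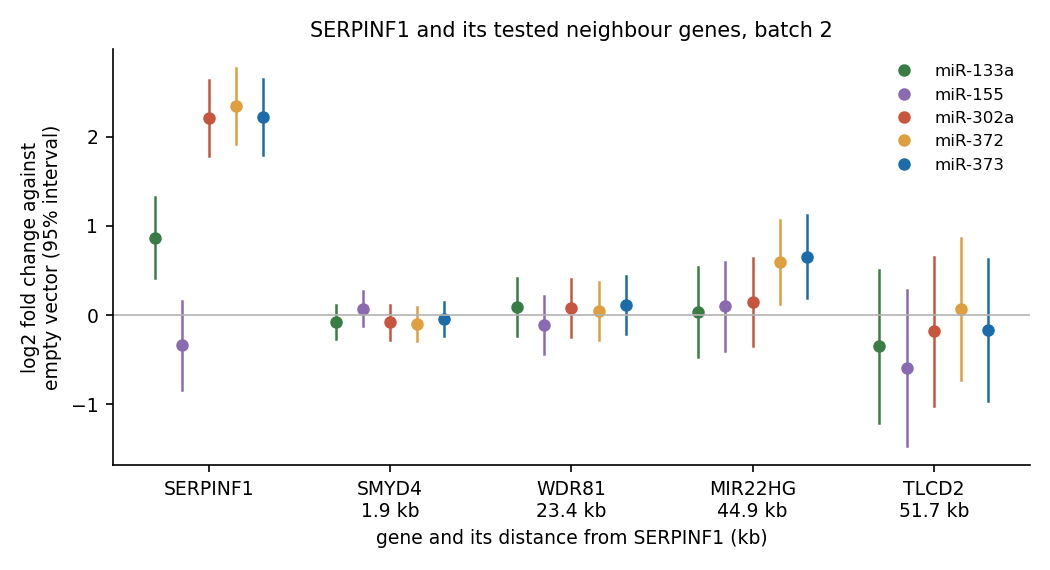
Log2 fold change against the empty vector of batch 2 (vertical axis, with 95% interval) for SERPINF1 and its 4 tested neighbour genes, ordered by distance in kb (horizontal axis), with 1 colour per miRNA. SERPINF1 lies above 2 for the same-seed miRNAs, whereas SMYD4, the nearest gene, lies between -0.10 and 0.07 for all 5 miRNAs.

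The genes whose levels ran most like SERPINF1 over the 18 libraries of batch 2 were sought among 12298 genes, as a description. The 5 with the highest Pearson correlation of log2 CPM were ENPP2 (0.979), COQ8A (0.967), KLHDC8B (0.964), IL32 (0.962) and CRABP2 (0.961). ENPP2 encodes autotaxin, which makes lysophosphatidic acid, IL32 a cytokine and CRABP2 a carrier of retinoic acid. The 18 points fall into 6 groups, so the correlations mainly restate differences between groups. IL32 had same-seed log2 fold changes of 1.76, 1.89 and 1.66, and 0.56 with miR-133a and -0.56 with miR-155. The others moved less, with same-seed log2 fold changes of 0.93, 0.97 and 1.00 for ENPP2 and 0.35, 0.37 and 0.28 for COQ8A. All 5 were retained with a prior count of 0.5, but only 2 were among the top 5 by Spearman correlation.

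SERPINH1 (ENSG00000149257.9, chr11:75273101-75283828, plus strand) encodes the collagen chaperone HSP47 of the endoplasmic reticulum. It was called in 5 of the 7 comparisons with empty vector, more than any other gene of the group, in both directions. In batch 1, the empty vector libraries held 103 and 102 CPM, those with miR-1 81.6 and 79.8 CPM, and those with miR-122 86.5 and 83.5 CPM. Both miRNA groups lay below both controls, a separation whose share over all genes was not counted. SERPINH1 fell by 0.34 on the log2 scale with miR-1 (SE 0.0460, edgeR adjusted p 2.1e-05) and fell by 0.27 with miR-122 (SE 0.0458, edgeR adjusted p 0.00073), and both calls were kept in all 10 alternatives. Compared directly, miR-1 and miR-122 did not differ by the test (log2 -0.07, 95% interval -0.17 to 0.02, edgeR adjusted p 0.244).

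In batch 2, SERPINH1 stood at 89.5, 95.4 and 99.0 CPM in the control libraries. With miR-133a it was at 71.8, 79.3 and 76.7 CPM, below all controls. It was at 121.96, 117.98 and 110.37 CPM with miR-302a, at 111, 139 and 116 CPM with miR-372, and at 109, 120 and 113 CPM with miR-373, so that all 9 same-seed libraries lay above all 3 controls. The 3 groups were set against the same controls, and the share of all genes that separate in such ways was not counted. SERPINH1 fell by 0.32 on the log2 scale with miR-133a (SE 0.0846, edgeR adjusted p 0.032). It rose with miR-302a (0.30, SE 0.0836, edgeR adjusted p 0.031) and miR-372 (0.37, SE 0.0835, edgeR adjusted p 0.0077). With miR-373 the value was 0.27 (SE 0.0834) and did not pass (edgeR adjusted p 0.067), although it did with DESeq2 (adjusted p 0.0347). With miR-155 the libraries held 100, 115 and 108 CPM, a log2 fold change of 0.19 that did not pass (edgeR adjusted p 0.175). The difference in direction between miR-133a and the same-seed miRNAs was not tested, but their libraries did not overlap. The miR-133a call was lost without empty vector replicate 2 or 3 (edgeR adjusted p 0.111 and 0.138) and without any 1 of miR-133a replicates 1, 2 and 3 (0.148, 0.0747 and 0.101). The miR-302a call was lost without empty vector replicate 1, 2 or 3 (0.124, 0.0918 and 0.0591) and without miR-302a replicate 1 or 2 (0.137 and 0.0518). The miR-372 call was lost only in the fit of those 2 groups alone (0.0543).

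Among the collagen genes and collagen-modifying enzymes listed as partners of SERPINH1, 19 were tested. With miR-1, 10 were lower and 0 higher (52.6% called, against 24.5% of all genes), among them PPIB (log2 -0.47, SE 0.0421), COL6A2 (-0.68, SE 0.0639) and CRTAP (-0.42, SE 0.0435), where PPIB and CRTAP act with P3H1 on collagen prolines. With miR-122, 2 were lower and 3 higher (26.3%, against 5.92%). With miR-133a, 3 were lower and 0 higher (15.8%, against 5.34%). These were PLOD2, a lysyl hydroxylase (-0.51, SE 0.0700), P3H1 (-0.50, SE 0.0835) and COL2A1 (-0.53, SE 0.124). COL2A1, a fibrillar collagen, was higher with all 3 same-seed miRNAs (0.61, 0.65 and 0.73) and lower with miR-155 (-0.79, SE 0.125). COL3A1, also a fibrillar collagen but at a mean log2 CPM of only 1.00, was lower with miR-302a (-0.99, SE 0.295) and miR-372 (-1.03, SE 0.288). With miR-155, 2 of the list were lower and 2 higher (21.1%, against 7.63%). With the same-seed miRNAs 1, 1 and 0 were lower and 1, 3 and 1 higher (10.5%, 21.1% and 5.26%, against 7.88%, 11.4% and 5.13%). The median log2 fold change of the list was -0.15 with miR-1 and -0.18 with miR-133a, and between -0.09 and 0.05 with the others. Over all genes tested the median lay between -0.0072 and 0.0057 in every comparison.

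SERPINE2 (ENSG00000135919.8, chr2:224839762-224904035, minus strand) encodes protease nexin-1, a secreted inhibitor of thrombin, urokinase and tissue plasminogen activator. In batch 2 the control libraries held 40.0, 38.7 and 43.2 CPM. With miR-302a the level was 53.2, 46.3 and 57.4 CPM, with miR-372 it was 52.8, 52.9 and 54.2 CPM, and with miR-373 it was 47.5, 48.9 and 51.3 CPM. All 9 of these libraries lay above all 3 controls, which the 3 groups share. The share of all genes that separate in this way was not counted. SERPINE2 rose 1.28-fold with miR-302a (log2 0.36, SE 0.0859, edgeR adjusted p 0.013) and 1.31-fold with miR-372 (0.39, SE 0.0855, edgeR adjusted p 0.0058). With miR-373 the log2 fold change of 0.28 (SE 0.0854) did not pass (edgeR adjusted p 0.066), while the DESeq2 test called it (adjusted p 0.0296). The miR-372 call was kept in all 12 alternatives. The miR-302a call was lost without empty vector replicate 1 or 2 (edgeR adjusted p 0.0532 and 0.0670) and without miR-302a replicate 1 or 3 (0.0544 and 0.0795), and was kept without replicate 2, the library that stood apart (0.00274). With miR-133a SERPINE2 stood at 44.2, 46.9 and 46.7 CPM (log2 0.18, edgeR adjusted p 0.259), and with miR-155 at 36.3, 42.7 and 42.9 CPM, on both sides of the controls. In batch 1 it was at 37.3 and 41.0 CPM with empty vector, 32.4 and 37.1 CPM with miR-1, and 36.1 and 36.0 CPM with miR-122. The miR-1 value of -0.17 did not pass (edgeR adjusted p 0.0739) but did so without empty vector replicate 1 (0.0126) or miR-1 replicate 2 (0.0336). Without empty vector replicate 2 it was -0.10 (0.384), and without miR-1 replicate 1 it was -0.08 (0.590).

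**Figure D3:**
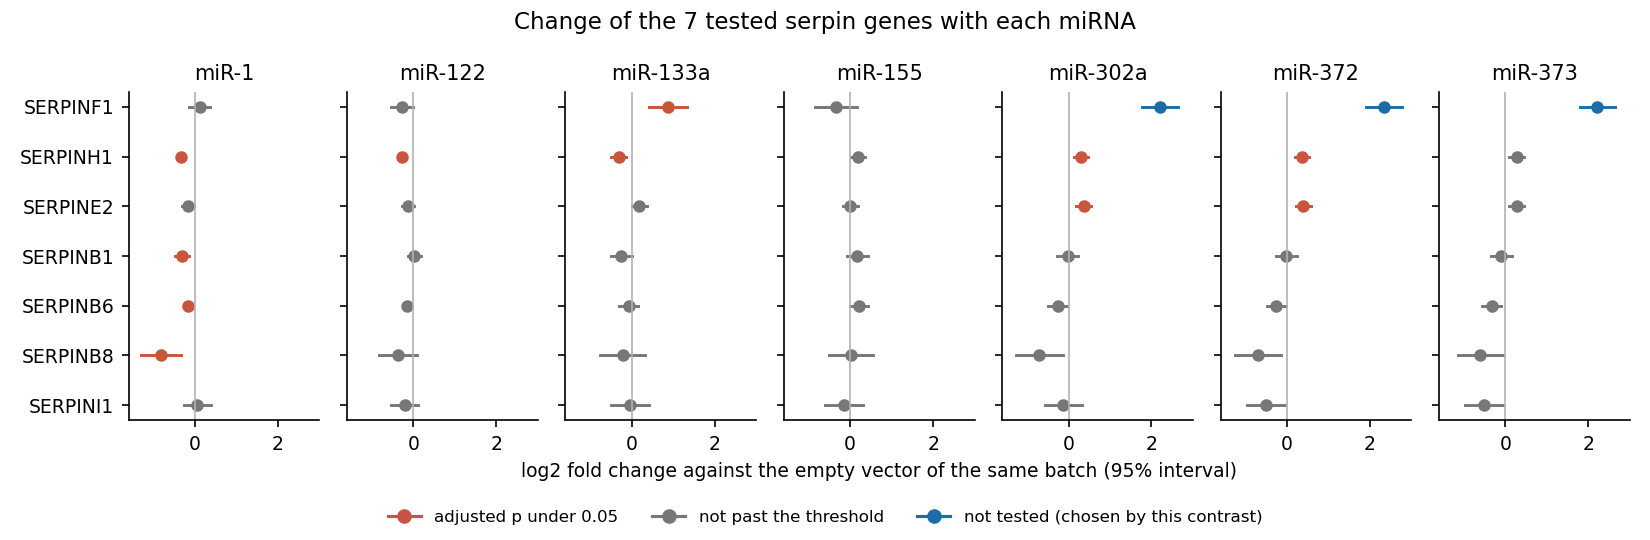
Log2 fold change (horizontal axis, with 95% interval) of the 7 tested serpin genes (vertical axis) with each of the 7 miRNAs, against the empty vector of the same batch. Red marks an edgeR adjusted p under 0.05, grey a value that did not pass and blue the SERPINF1 contrasts, which chose the gene and were not tested. SERPINH1 and SERPINE2 lie above 0 for the 3 same-seed miRNAs, and 4 genes are red below 0 for miR-1.

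The serpins of clade B stay inside the cell and shield it from stray proteases. SERPINB1 inhibits neutrophil elastase, SERPINB6 cathepsin G and SERPINB8 furin-type proteases. With miR-1 all 3 were lower than with empty vector. SERPINB8 (ENSG00000166401.9, chr18:61637263-61687013) was at 2.95 and 2.41 CPM in the control libraries, from 61 and 51 reads, and at 1.73 and 1.30 CPM with miR-1, from 37 and 27 reads. SERPINB1 (ENSG00000021355.8, chr6:2832566-2842193, minus strand) was at 24.9 and 26.9 CPM in the controls and at 21.7 and 20.0 CPM with miR-1. SERPINB6 (ENSG00000124570.13, chr6:2948393-2972399, minus strand) was at 77.9 and 78.6 CPM in the controls and at 67.7 and 71.1 CPM with miR-1. In each case both miR-1 libraries lay below both controls, a separation whose share over all genes was not counted. SERPINB8 fell by 0.82 (SE 0.234, edgeR adjusted p 0.015), SERPINB1 fell by 0.31 (SE 0.0761, edgeR adjusted p 0.0056) and SERPINB6 fell by 0.17 (SE 0.0489, edgeR adjusted p 0.014) on the log2 scale.

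With SERPINH1, 4 of the 7 tested serpin genes were called with miR-1, all of them lower, where 24.5% of all genes tested were called and 13.7% were called lower. The DESeq2 Wald test called only SERPINH1. Its adjusted p was 0.0523 for SERPINB1, 0.100 for SERPINB6 and 0.130 for SERPINB8. SERPINB8 was not called without empty vector replicate 1 (edgeR adjusted p 0.0985) or miR-1 replicate 2 (0.155), SERPINB1 not without miR-1 replicate 2 (0.0891) and SERPINB6 not without miR-1 replicate 1 (0.186). With miR-122, 1 of 7 was called, SERPINH1, where 5.92% of all genes were. SERPINB1 was at 27.1 and 25.4 CPM with miR-122, among the controls. It was lower with miR-1 than with miR-122 (log2 -0.33, SE 0.0761, edgeR adjusted p 0.0026), a call that was kept with DESeq2 but lost without miR-1 replicate 2 (0.0527) or miR-122 replicate 1 (0.0518). With SERPINF1, 2 of 7 were called between miR-1 and miR-122, where 31.2% of all genes were called.

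In batch 2, no clade B gene was called by edgeR against empty vector. SERPINB6 was at 83.3, 75.5 and 73.8 CPM in the controls, at 69.1, 52.9 and 72.5 CPM with miR-302a, at 64.0, 63.0 and 68.1 CPM with miR-372, and at 63.6, 53.4 and 67.6 CPM with miR-373. All 9 same-seed libraries were below all 3 controls, again without a share over all genes to set beside it. Its log2 fold changes were -0.26, -0.25 and -0.33 with 95% intervals from -0.49 to -0.03, from -0.48 to -0.03 and from -0.55 to -0.10 (edgeR adjusted p 0.151, 0.141 and 0.0869). SERPINB8 was at 2.48, 2.17 and 1.89 CPM in the controls, and its highest same-seed library was at 1.70 CPM. Its log2 fold changes were -0.70, -0.69 and -0.60 (SE 0.268, 0.263 and 0.257, edgeR adjusted p 0.118, 0.0961 and 0.219) from 11 to 39 reads per library. The libraries did not overlap the controls, but the values did not pass the threshold at this depth. HMSD, whose annotated span overlaps that of SERPINB8 on the same strand, was lower with miR-372 (log2 -0.85, SE 0.267, edgeR adjusted p 0.045). Whether HMSD and SERPINB8 share counted exons, and how reads there would have been counted, was not examined. SERPINB1 was at 25.3, 27.7 and 26.9 CPM in the controls and within 21.3 to 30.9 CPM in the same-seed libraries, with log2 fold changes of -0.02, -0.01 and -0.10. SERPINB1 with miR-133a stood at 21.4, 23.7 and 22.3 CPM, below all controls. Its log2 fold change of -0.25 did not pass (edgeR adjusted p 0.260). With miR-155, SERPINB6 (82.6, 98.3 and 89.2 CPM) and SERPINB1 (30.1, 29.1 and 31.0 CPM) had log2 fold changes of 0.22 and 0.17 that did not pass (edgeR adjusted p 0.229 and 0.394).

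SERPINB9 lies between SERPINB1 and SERPINB6 on chromosome 6, 45.3 kb from the first and 44.8 kb from the second. It had at most 1 read in any of the 24 libraries. In the groups with 0 reads (miR-122, and in batch 2 empty vector, miR-155, miR-302a and miR-372), a count of 0 allows up to 3 reads per group, or 0.0553 to 0.0733 CPM without TMM scaling. Its genomic neighbours were thus abundant in cells where SERPINB9 was hardly detected, and PTPRC, a defining leukocyte marker, had at most 4 reads in a library.

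SERPINI1 (ENSG00000163536.8, chr3:167453031-167543357, plus strand) encodes neuroserpin, an inhibitor of tissue plasminogen activator made mainly by neurons. It was called in 0 of the 7 comparisons with empty vector by edgeR and by DESeq2, with an unadjusted p under 0.05 in 2 (miR-372 and miR-373). Its control libraries in batch 2 held 4.88, 4.48 and 6.50 CPM. With miR-302a it was at 5.33, 4.37 and 4.88 CPM, with miR-372 at 4.08, 3.05 and 3.92 CPM, and with miR-373 at 2.78, 4.63 and 3.59 CPM. The miR-372 libraries lay below the controls, whereas the miR-302a libraries and 1 miR-373 library overlapped them. The log2 fold changes were -0.12, -0.51 and -0.52 (SE 0.217, 0.219 and 0.217, edgeR adjusted p 0.769, 0.145 and 0.207). Between miR-302a and miR-373 the difference of 0.39 had a 95% interval from -0.06 to 0.85 and did not pass. With miR-133a, miR-155, miR-1 and miR-122 its log2 fold changes were -0.05, -0.15, 0.06 and -0.21.

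**Figure D4:**
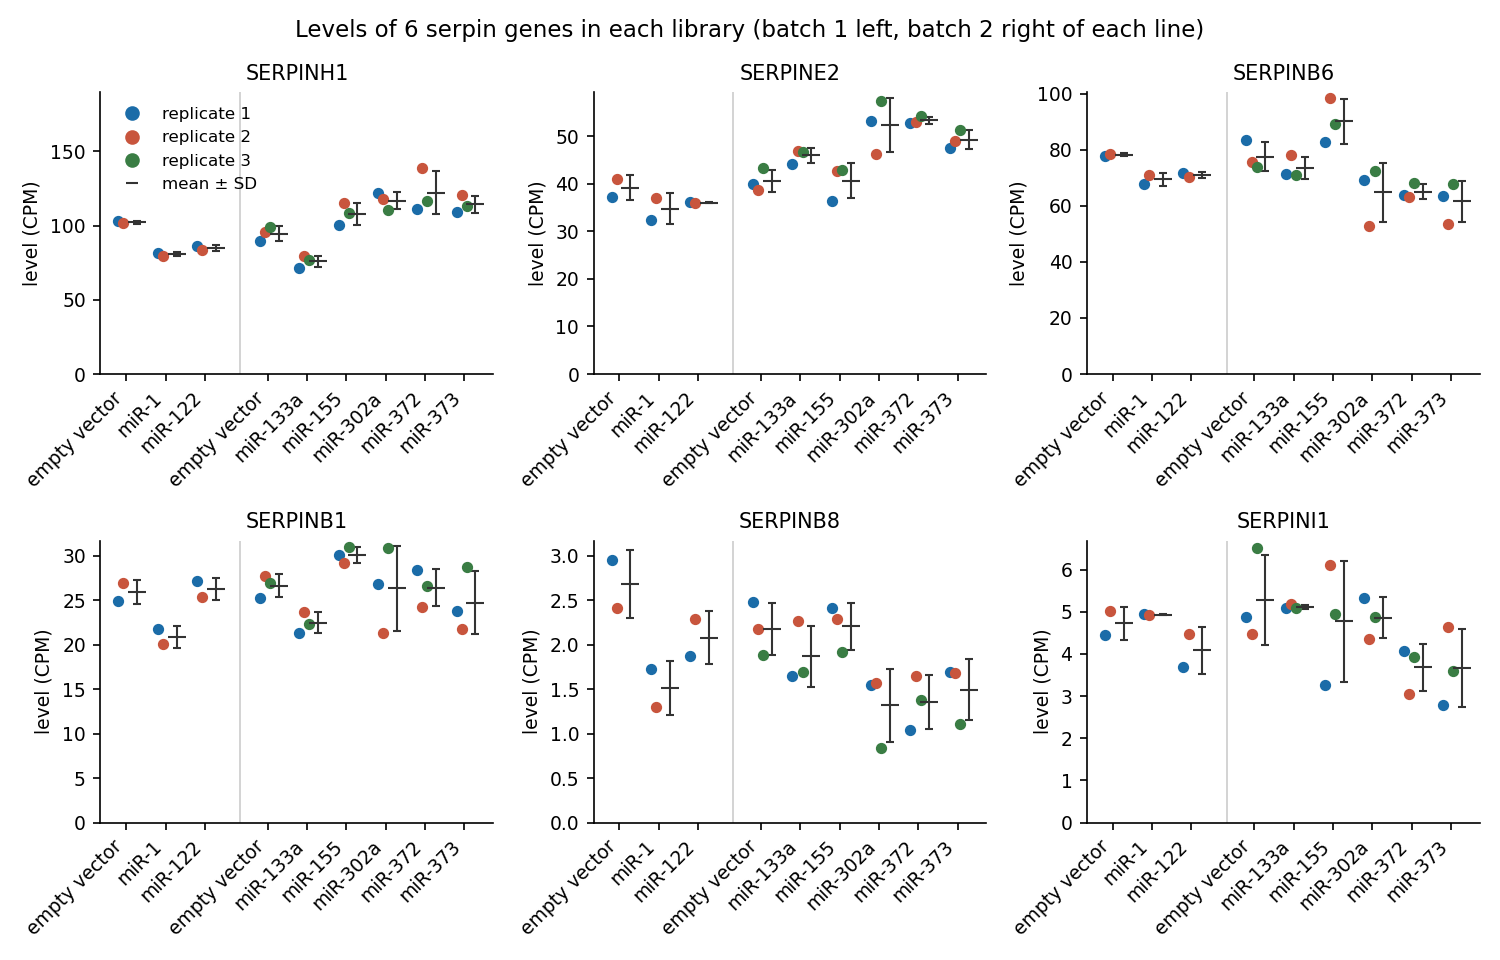
Level in CPM (vertical axes, each from 0) of SERPINH1, SERPINE2, SERPINB6, SERPINB1, SERPINB8 and SERPINI1 in each of the 24 libraries, with batch 1 left and batch 2 right of the line. Points are replicates, and bars give the mean and SD. In the same-seed libraries SERPINH1 and SERPINE2 lie above, and SERPINB6 and SERPINB8 below, every control library of batch 2. SERPINB6 and SERPINB8 did not pass the edgeR test with any same-seed miRNA. The share of all genes that separate in this way was not counted.

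Counted over the group in batch 2, 2 of 7 serpin genes were called with miR-133a (SERPINH1 lower and SERPINF1 higher), where 5.34% of all genes tested were called. SERPINF1 was chosen by its rise over these same control libraries, so its miR-133a call is not independent of the choice. SERPINH1 was the only other gene of the group called with miR-133a. With miR-155, 0 of 7 were called by edgeR and by DESeq2, with 1 at an unadjusted p under 0.05, where 7.63% of all genes were called. For the same-seed miRNAs, SERPINF1 is left out of the count. Of the other 6, 2 were called with miR-302a and 2 with miR-372, SERPINH1 and SERPINE2 in both cases, where 7.88% and 11.4% of all genes were called. With miR-373, 0 of 6 were called by edgeR although 5 had an unadjusted p under 0.05, and DESeq2 called 2, SERPINH1 and SERPINE2. Of all genes, 5.13% were called with miR-373 by edgeR, 2487 of 14054 had an unadjusted p under 0.05, and DESeq2 called 895. Each of these counts rests on the same 3 control libraries.

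SERPING1, the serpin outside the 9 genes that could be tested, had 9 to 12 reads in the control libraries of batch 2, at 0.900, 0.791 and 0.629 CPM. With miR-302a it was at 2.39, 1.23 and 2.29 CPM, with miR-372 at 1.62, 2.04 and 2.04 CPM, and with miR-373 at 1.70, 1.14 and 2.40 CPM, above all controls, again without a share over all genes to set beside it. It rose by 1.32, 1.30 and 1.23 on the log2 scale (SE 0.344, 0.338 and 0.334, edgeR adjusted p 0.023, 0.018 and 0.036). With miR-155 it was at 1.63, 0.994 and 1.27 CPM, also above all controls, and its log2 fold change of 0.76 did not pass (edgeR adjusted p 0.214), nor did the 0.48 with miR-133a (0.515). In batch 1 it fell by 1.09 with miR-1 (SE 0.345, edgeR adjusted p 0.026), from 25 and 24 reads to 13 and 10. At these counts the calls against empty vector were fragile. In fits that each left out 1 library, the miR-302a call was lost in 5 of 6, the miR-372 call in 2 of 6, the miR-373 call in 5 of 6 and the miR-1 call in 4 of 4, with edgeR adjusted p of up to 0.277. The miR-1 call was also lost with the DESeq2 Wald test (adjusted p 0.169). Between miR-1 and miR-122 the log2 difference was -1.52 (SE 0.323, edgeR adjusted p 0.0014). It stayed between -1.69 and -1.33 in the 8 alternatives that gave an adjusted p.

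Seed matches were searched in the longest annotated 3′UTR and ORF of each gene, on the sense strand of the mRNA. An 8mer pairs with positions 2 to 8 and has an A opposite position 1, a 7mer-m8 pairs with positions 2 to 8 alone, and a 7mer-A1 pairs with positions 2 to 7 and has the A. The 8mers are AGCACTTA for the same-seed miRNAs, GGACCAAA for miR-133a, AGCATTAA for miR-155, ACATTCCA for miR-1 and ACACTCCA for miR-122. The 7mer-m8 lacks the last base of the 8mer and the 7mer-A1 the first, and each match was counted once as the longest kind. SERPINF1 held none of the matches for any of the 7 miRNAs in its 3′UTR of 119 bases or in its ORF of 1257 bases. For the same-seed miRNAs, 2.80% of the 250 tested genes with a 3′UTR within 25% of that length held any match, and 30.1% of tested genes with a 3′UTR of any length did. SERPINI1 and SERPINF2 held none either.

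The 3′UTR and ORF matches of SERPINH1, SERPINB6 and SERPINB8 are shown with up to 10 bases on each side and the match in capitals, from GRCh37. Not shown are a miR-133a 7mer-A1 in the ORF of SERPINB1 (chr6:2836435-2836441) and the matches of SERPINE2 and SERPINB9. In the longest annotated 5′UTRs, SERPINH1 also held a miR-1 7mer-m8 (chr11:75274221-75274227), SERPINB6 a same-seed 7mer-m8 (chr6:2967150-2967156) and SERPINE2 a miR-122 7mer-m8 (chr2:224895784-224895790).
SERPINH1, 3′UTR, miR-133a 7mer-A1 at chr11:75283463-75283469, plus strand: tcacctgtgaGACCAAAttgagctagg
SERPINH1, 3′UTR, miR-122 7mer-A1 at chr11:75283301-75283307, plus strand: agctagaattCACTCCActtggacatg
SERPINH1, ORF, miR-122 7mer-A1 at chr11:75277866-75277872, plus strand: caactgcgagCACTCCAagatcaactt
SERPINB8, 3′UTR, miR-1 7mer-m8 at chr18:61654569-61654575, plus strand: gccttaattaACATTCCctgtgaccta
SERPINB8, ORF, same-seed 8mer at chr18:61654116-61654123, plus strand: tggtggaaaaAGCACTTAcatatgagaa
SERPINB6, 3′UTR, miR-122 8mer at chr6:2948478-2948485, minus strand: ctgtcccctgACACTCCAcagtgtgcct

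SERPINH1 was lower with both miRNAs that it matches in the 3′UTR, and also with miR-1, which it matches only in the 5′UTR. Any miR-122 match was present in 12.1%, and any miR-133a match in 6.47%, of tested genes with a 3′UTR of about its length. SERPINB8 was lower with miR-1, whose 8mer or 7mer-m8 was present in 13.9% of genes with a 3′UTR of about its length, and SERPINB1 and SERPINB6, also lower, held no miR-1 match in any region. SERPINB6 held the only 8mer in a 3′UTR among the 9 genes. Such a match to miR-122, or a 7mer-m8, was present in 1.25% of the 320 genes with a 3′UTR of about its 139 bases. With miR-122, SERPINB6 was at 71.7 and 70.1 CPM, below both controls, and its log2 fold change of -0.14 (95% interval -0.24 to -0.04) did not pass (edgeR adjusted p 0.0998). SERPINE2 held no match in its 3′UTR and 1 miR-133a 7mer-m8 in its ORF. SERPINB9 held 4 matches in its 3′UTR of 2893 bases, but its reads were too few to read any change from.

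Proteases that serpins inhibit, and receptors that bind serpins, proteases or their complexes, were counted beside them. Of 27 proteases, 14 were tested. With miR-1, 4 were lower and 0 higher (28.6%, close to the 24.5% of all genes), including HTRA1 (log2 -0.98, SE 0.135), TMPRSS2 (-1.37, SE 0.346) and the cathepsin CTSB (-0.16, SE 0.0421). With miR-122, 0 were lower and 2 higher (14.3%, against 5.92%), the convertase FURIN (0.28, SE 0.0438) and the plasminogen activator PLAT (0.22, SE 0.0532), a target of SERPINE2 and SERPINI1. In batch 2, edgeR called 0 with miR-133a, miR-155 and miR-372 and 1 each with miR-302a and miR-373 (7.14%, against 7.88% and 5.13%), in both cases the apoptosis initiator CASP8 (-0.39, SE 0.109 and -0.44, SE 0.108). PRSS8, the serine protease named above with log2 fold changes of 2.03 and 2.06 with miR-302a and miR-373, was not on this list. Between miR-1 and miR-122, 8 proteases were lower with miR-1 and 0 higher (57.1%, against 31.2% of all genes).

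Of the receptors, 15 were tested in batch 1 and 13 in batch 2. PNPLA2, a lipase that binds the SERPINF1 protein, was higher with miR-1 (0.37, SE 0.0492) and F2R, a thrombin receptor, was lower (-0.30, SE 0.0523), among 4 lower and 2 higher (40.0%, against 24.5% of all genes). With miR-122, 1 was lower (F2RL1, -0.35, SE 0.0605) and 1 higher (VLDLR, 0.28, SE 0.0778), which is 13.3% against 5.92%. With miR-133a, RPSA, the laminin receptor that also binds the SERPINF1 protein, was higher (0.38, SE 0.0835) and SORL1 lower (-0.53, SE 0.138), which is 15.4% against 5.34%. With miR-155, 2 were lower and 2 higher (30.8%, against 7.63%), among them PLAUR, the urokinase receptor (0.70, SE 0.158), and THBD, a thrombin receptor of the vessel wall (-0.78, SE 0.224). With the same-seed miRNAs 1 receptor was called, RPSA with miR-372 (0.30, SE 0.0832; 7.69%, against 11.4%), and 0 with miR-302a or miR-373. Median log2 fold changes ranged from -0.15 to 0.07 for the proteases and from -0.17 to 0.05 for the receptors against empty vector.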

How the data were processed

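The libraries were directional poly(A) RNA-seq libraries from 1000 ng of RNA. Per the labels and the study's methods, the authors trimmed adapters, aligned the reads to hg19 with TopHat2 2.1.1 and used featureCounts to count exonic reads per gene on the matching strand. The authors deposited these counts without normalization, with a feature length in bases that was used here to express levels per kilobase. The authors' deposited tables of their own tests (log2 fold changes, log2 CPM, p-values and q-values from edgeR 3.24.3) were not used.

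Here, 28543 of the 29794 genes were matched by identifier to GENCODE on GRCh37. Counts were fitted with edgeR 4.0.16 in R 4.3.3 by a quasi-likelihood model of all groups of a batch, with TMM factors, filterByExpr (minimum count 10, leaving 14348 and 14054 genes), a prior count of 0.125 and Benjamini-Hochberg adjustment over all genes at 0.05, two-sided. Intervals are 95% intervals from the moderated degrees of freedom. DESeq2 1.42.0 was an alternative, as were its size factors, no filter, more than 1 CPM in every library, the 2 groups alone, the replicate number as a block, and each library left out. Intervals and limits on counts cover counting error only where they come from counts alone. The fit was tested on simulated data.

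Replicate numbers were taken to pair libraries where same-numbered deviations from the group means all correlated above 0.1 across genes. This held for miR-302a and miR-372 (0.227, 0.336 and 0.161), where the block changed no call.

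The 9 members and the partner lists (27 proteases, 16 receptors, 21 collagen genes, and genes within 100 kb) were chosen with earlier results of these data known. From a list, at most the 3 genes with the lowest adjusted p per comparison were named, and for SERPINF1 all tested neighbours and the 5 genes most like it (log2 CPM with a prior count of 2). Site shares count tested genes with a 3′UTR or ORF within 25% of the length of that of the member. Whether the libraries of a group overlapped the controls was noted for the described genes only. The share of all genes without overlap was not counted.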

Additional observations from a re-analysis of the deposited data

How the results depend on the processing

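Of 126 counts of called members under alternatives, 103 stayed within 1.5 times the reported count and 23 moved. The 126 include the 3 same-seed comparisons, where the reported fit called 0 of all genes tested, so that 0 members was nearly fixed in advance. A count could also stay while different genes were called, so the 103 do not measure how stable the calls were. Of 238 log2 fold changes of genes called in the reported fit or under an alternative, SERPING1 included and the untested SERPINF1 contrasts left out, 179 stayed called or uncalled as reported, 49 lost and 10 gained a call, and 0 reversed. Among 63 uncalled pairs of gene and comparison, 29 changed sign under some alternative. The DESeq2 Wald test called 1 member with miR-1 (4 reported), 2 with miR-373 (0 reported) and 1 between miR-1 and miR-122 (2 reported). With no filter, 1 was called with miR-373. With only the 2 groups compared, 1 was called with miR-372 (2 reported) and 3 with miR-373, SERPINB6 besides SERPINH1 and SERPINE2. With the replicate block, 2 were called with miR-373, SERPINH1 and SERPINE2, where numbers were not shown to pair the libraries, and the block moved no other count of called members. Leaving out 1 library at a time gave 3 to 4 members with miR-1, 1 with miR-122, 0 to 1 with miR-133a, 0 with miR-155, 0 to 1 with miR-302a, 2 with miR-372, 0 with miR-373, 0 to 1 between miR-1 and miR-122, and 0 in the 3 same-seed comparisons. In batch 1 the library left alone was assumed to vary like the other groups. The cause of these shifts was not tested. Fits with 1 library left out, or of 2 groups alone, also held fewer libraries. Over all genes, the block called 1308 genes with miR-133a (750 reported), 1663 with miR-155 (1073) and 1122 with miR-373 (721). The fit of 2 groups called 2349 with miR-133a and 811 with miR-372 (1599), and DESeq2 called 1785 with miR-1 (3520), 410 with miR-122 (849) and 2542 between them (4481). With 1 library left out, the counts over all genes ran from 1766 to 3465 with miR-1, 319 to 1597 with miR-122, 2564 to 2996 between them, 490 or fewer with miR-133a, 494 to 991 with miR-155, 479 to 1764 with miR-302a, 856 to 1827 with miR-372 (1599 reported) and 346 to 502 with miR-373. Depth limits SERPINB8, SERPINF2, SERPINB9 and SERPING1 most.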
